A study of Saccharomyces cerevisiae with 9 samples.

Results

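The wild-type nucleosome landscape of budding yeast (Saccharomyces cerevisiae) is described here from 51917 nucleosome calls, out of 216572 rows in the 4 deposited tables of the series. They are the WT calls of the table that the authors paired with the ioc3Δ strain, with 1911 repeats of another row and the 12 calls of the rRNA locus on chromosome XII dropped. The series holds 9 MNase-seq samples of 3 genotypes, namely ioc3Δ, ioc3ΔcHLB and WT, and no mutant value is used below. The table keeps only WT calls that a mutant call overlaps by at least 73 bp. Which WT calls enter the counts, distances and arrays below thus depends on the ioc3Δ strain too. The WT samples carry an intact ISW1a remodeler, and their labels give the BY4742 background, which the calls below go against, and a FLAG tag, which the methods place on IOC3. The 3 WT samples were grown at 30 °C in rich medium, fixed with 1% formaldehyde for 20 min, digested with micrococcal nuclease and sequenced from both ends of the mononucleosomal DNA. They were merged by the authors before the calls were made, so the table carries no value per sample, the spread between cultures is unknown and nothing was tested across samples.

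A nucleosome is the unit of chromatin in which DNA is wrapped around a core of histones, and the dyad is the centre of the wrapped DNA. Micrococcal nuclease cuts the linker DNA between nucleosomes, so the centre of a protected fragment marks a dyad. In yeast genes, nucleosomes form an array that starts with the +1 nucleosome near the transcription start site, next to a promoter region depleted of nucleosomes. Remodelers of the ISWI and CHD families, ISW1a among them, are known to space the nucleosomes of such arrays.

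For each call the table gives the dyad position, the SD of the dyads assigned to the call, which is a measure of fuzziness in bp, and the occupancy, which is the dyad signal scaled to the mean coverage of the genome. Every occupancy was a whole multiple of 0.138 to within 0.018% of that step, and the step was taken as 1 fragment. Occupancy is then a scaled count of the fragments of a call, not a fold of the mean coverage. By this measure the calls held 43911516 fragments, with a median of 422 per call (interquartile range 269 to 687), and 98.1% of them held at least 100. At the median call this depth gives a standard error of 1.27 bp for the mean dyad and 0.896 bp for the dyad SD. These errors, like the 95% intervals of medians given below, treat fragments, calls and genes as independent and do not include differences between cultures. IOC3 (YFR013W), which encodes a subunit of ISW1a, had 7 calls with occupancies between 3.87 and 113.6 (median 62.4). The lowest of them held 28 fragments, and neighbouring dyads in the gene were up to 501 bp apart. The table keeps WT calls that a call of the ioc3Δ strain overlaps, so WT calls in this gene could be missing from it. Marker genes that are deleted in whole or in part in BY4742 also had calls. LYS2, of lysine synthesis, had 21 calls, LEU2, of leucine synthesis, had 6, HIS3, of histidine synthesis, had 5 and URA3, of uracil synthesis, had 4. Their median occupancies were 58.4 for LYS2, 86.8 for LEU2, 78.1 for HIS3 and 60.7 for URA3, around the 58.3 of all calls. For the genes deleted in whole this goes against the labelled background, while a gene deleted in part could still hold calls.

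The calls lay almost wholly in and beside genes. The dyad was within 73 bp of an annotated gene in 99.2% of the calls, a zone that covers 80.8% of the nuclear genome, and inside a coding region in 91.3%, against 72.8% of the genome. In 1288 intergenic stretches of at least 800 bp upstream of a start codon there were 5.86 calls per kb in the 40 bp next to the gene, 4.61 from 41 to 73 bp and 0.231 from 74 to 120 bp. Inside coding regions there were 5.39 calls per kb. Downstream of stop codons the density was 5.45 calls per kb in the nearest 40 bp and 0.116 from 74 to 120 bp, over 734 stretches. The density thus dropped at a fixed distance from the annotated gene on both sides. Promoter nucleosomes such as the -1 nucleosome are therefore largely outside the description that follows, and a gap between calls is not a measure of the width of a nucleosome-depleted region.

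Single calls ranged widely in fuzziness. Among calls of at least 100 fragments, the sharpest lay 49 bp inside ERR3, an enolase-like gene near the right end of chromosome XIII, with a dyad SD of 6.51 bp and an occupancy of 109.5. The next had a dyad SD of 8.15 bp outside any annotated gene, 721 bp from the same chromosome end, and 8.36 bp at the start of the open reading frame YER085C. The broadest calls had dyad SDs of 54.8 bp in ADH1, which encodes the main fermentative alcohol dehydrogenase, 51.6 bp in LCB1, of sphingolipid synthesis, and 51.4 bp in TAT1, an amino acid transporter. The centre of the ADH1 call occurs 2 times in the genome. The DNA of these calls is shown so that the base composition of the sharpest and broadest calls can be compared, with the sharpest and the broadest +1 call among the gene lists described below. Sequences are from the RefSeq genome R64 (sacCer3), top strand, 73 bases to each side of the dyad, and capitals mark runs of 5 or more A or T.
Sharpest call, ERR3, chrXIII:920064-920210: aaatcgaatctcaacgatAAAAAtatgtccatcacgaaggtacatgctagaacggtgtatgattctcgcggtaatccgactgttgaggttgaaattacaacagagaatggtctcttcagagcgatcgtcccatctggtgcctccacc
Sharpest call, no gene, chrXIII:923637-923783: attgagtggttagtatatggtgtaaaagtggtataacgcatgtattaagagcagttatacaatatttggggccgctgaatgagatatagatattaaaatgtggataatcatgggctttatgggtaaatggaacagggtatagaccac
Sharpest call, YER085C, chrV:328045-328191: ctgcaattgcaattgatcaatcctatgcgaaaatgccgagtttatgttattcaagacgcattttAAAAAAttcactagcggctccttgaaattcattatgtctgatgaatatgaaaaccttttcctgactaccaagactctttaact
Broadest call, ADH1, chrXV:160198-160344: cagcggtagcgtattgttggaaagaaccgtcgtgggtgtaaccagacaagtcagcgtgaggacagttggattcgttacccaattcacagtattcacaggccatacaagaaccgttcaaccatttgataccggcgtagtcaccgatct
Broadest call, LCB1, chrXIII:860388-860534: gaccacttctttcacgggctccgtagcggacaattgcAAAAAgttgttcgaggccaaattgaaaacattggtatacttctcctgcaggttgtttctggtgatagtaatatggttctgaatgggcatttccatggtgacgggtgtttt
Broadest call, TAT1, chrII:377665-377811: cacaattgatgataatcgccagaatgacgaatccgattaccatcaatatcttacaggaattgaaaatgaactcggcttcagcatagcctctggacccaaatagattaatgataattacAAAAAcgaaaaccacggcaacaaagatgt
Sharpest +1 of the lists, NUP116, chrXIII:366647-366793: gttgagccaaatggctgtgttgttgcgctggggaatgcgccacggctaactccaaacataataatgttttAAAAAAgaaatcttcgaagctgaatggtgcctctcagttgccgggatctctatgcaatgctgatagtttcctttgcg
Broadest +1 of the lists, ENO1, chrVII:1000805-1000951: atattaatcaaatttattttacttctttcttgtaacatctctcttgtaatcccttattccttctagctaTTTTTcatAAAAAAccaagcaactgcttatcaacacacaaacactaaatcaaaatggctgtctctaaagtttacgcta
The 3 sharpest calls held 44.9%, 36.1% and 34.7% GC, and the 3 broadest 49.0%, 44.2% and 37.4%. The runs were few in either set, with at most 1 run per call, while the broad +1 call of ENO1 held 2 runs and 29.3% GC. Over all calls, such runs were about as common in the sharpest 20% of calls, where 50.8% held at least 1, as in the broadest 20%, where 51.4% did.

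**Figure D1:**
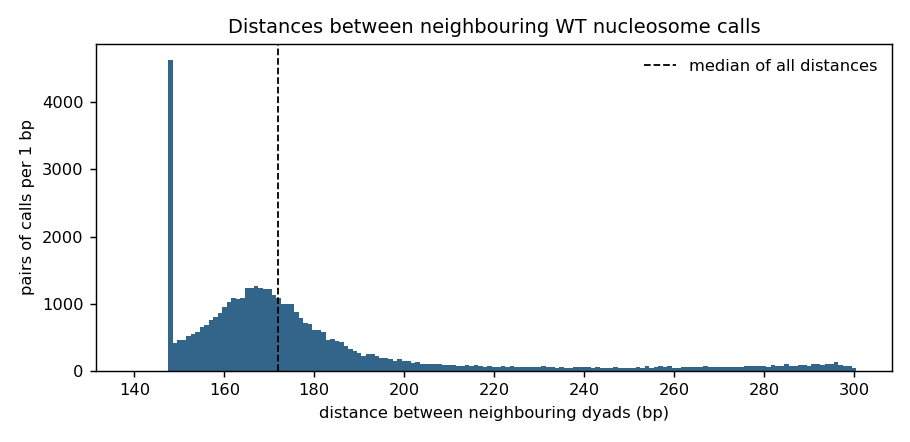
Number of pairs of neighbouring WT calls (vertical axis) at each distance between their dyads in bp (horizontal axis), with the median of all distances as a dashed line. The single tall bar is the smallest distance of 148 bp with 4636 pairs, the broad peak is highest at 167 bp, and a low shoulder ends at 296 bp.

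Neighbouring dyads were a median of 172 bp apart (interquartile range 161 to 200, n = 51901 distances), and 168 bp where only pairs at most 230 bp apart are counted (interquartile range 158 to 178, n = 41423). The commonest distance of the main peak was 167 bp, with 1258 pairs. No pair was closer than 148 bp, and 4636 pairs (8.93%) were at exactly that distance against 417 pairs at the next base pair, as the plot of distances shows. Above 230 bp the commonest distance was 296 bp, which is 2 times the smallest one, with 132 pairs. There were 1726 pairs in the 20 bp up to it and 1123 in the 20 bp after it. Both steps are multiples of the minimum distance between calls. Distances above 230 bp made up 20.2% of all pairs, and 12.3% of the 41550 pairs with unbroken coding sequence between their dyads. With the calls of the other WT table added, which holds 1574 further calls, the share over 230 bp was 17.7%. The paired table thus omits some WT calls. The 732 gaps over 1000 bp held on average 2.19% coding sequence. Within coding sequence the median distance was 170 bp.

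The distances were also counted by last digit, since linker lengths that differ by the 10 bp turn of the DNA helix would favour some digits. Among pairs at least 150 and under 230 bp apart, each last digit of the distance held between 9.44% and 10.5% of the pairs, where an even spread gives 10% each (n = 36310). The commonest 5 consecutive digits held 50.9%, and 50.5% where both dyad SDs were at or under the median (n = 16007). These digits were picked as the commonest, so their share is above 50% by construction.

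**Figure D2:**
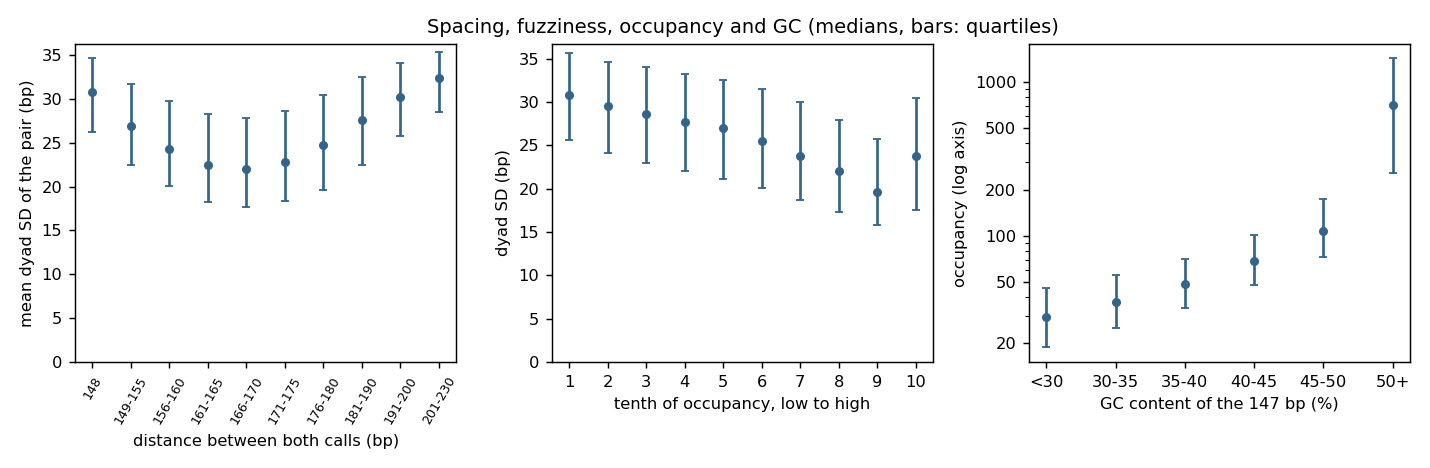
Left, mean dyad SD of 2 neighbouring calls (bp) by the distance between them (bp); middle, dyad SD (bp) in 10 occupancy classes of equal size; right, occupancy (log axis) by GC content of the wrapped DNA (%). Points are medians and bars quartiles over calls: fuzziness was lowest at 166 to 170 bp (22.0 bp) and in the class of next-to-highest occupancy (19.6 bp), and occupancy was highest in the class above 50% GC (711).

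Up to 230 bp, fuzziness and spacing were related in a U shape. Pairs 166 to 170 bp apart were the sharpest, with a median of their mean dyad SD of 22.0 bp (95% interval 21.7 to 22.3). Pairs at the smallest distance of 148 bp had 30.7 bp, and pairs 201 to 230 bp apart had 32.4 bp. The middle class was sharper than both of these in 16 of 16 chromosomes. Occupancy followed the opposite course, with a median of 63.4 at 166 to 170 bp, 48.5 at 148 bp and 53.2 at 201 to 230 bp. Beyond 230 bp the course turned back, with dyad SDs of 30.2 bp at 231 to 300 bp, 27.5 bp at 301 to 500 bp and 23.1 bp at 501 to 1000 bp, where the occupancy was 63.9. Over 1000 bp the dyad SD was 24.6 bp and the occupancy 70.7. Spearman's rank correlation between distance and dyad SD was -0.39 at or below the median of 168 bp (n = 21530 pairs) and 0.39 above it (n = 19893), so that over the whole range to 230 bp it was 0.02 (n = 41423). These values share the libraries, and neighbouring pairs share a call.

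Calls with more fragments were sharper, except for those of highest occupancy. In 10 classes of equal size by occupancy, the median dyad SD of the lowest 9 was 30.8, 29.5, 28.6, 27.7, 27.0, 25.5, 23.8, 22.1 and 19.6 bp in rising order of occupancy. In the top class it was 23.7 bp. That class also held the most repeated sequence, with 32.3% of its calls having central 50 bp that occur more than once in the genome, against 5.59% in the class below it, and its median GC content was 46.9%, against 42.9%. Their part in the turn was not tested. Over all calls the rank correlation between occupancy and dyad SD was -0.34 (n = 51917), and over calls in unique sequence it was -0.41 (n = 49359).

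Occupancy tracked base composition far more closely than fuzziness did. The median occupancy was 29.8 in calls under 30% GC (n = 1924), 37.3 from 30 to 35%, 48.5 from 35 to 40%, 68.9 from 40 to 45%, 108.1 from 45 to 50% and 711 from 50% (n = 2092). In unique sequence the last class also had a median of 711 (n = 1872). The rank correlation between GC content and occupancy was 0.55, against -0.08 between GC content and dyad SD (n = 51917 each). The sharpest 20% of calls held a median of 40.1% GC and the broadest 20% 38.8%. Dinucleotides of only A and T made up 34.3% of the steps 30 to 60 bp from the dyad in the sharpest 20%, against 36.8% in the broadest 20%. In the linker, 80 to 90 bp from the dyad, they made up 40.3% in the sharpest 20% and 40.5% in the broadest 20%. Whether this gradient belongs to the chromatin or to the libraries was not tested.

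Fuzziness was shared between neighbours more than occupancy or spacing was. In runs of calls at most 230 bp apart, the rank correlation between the dyad SDs of adjacent calls was 0.72 (n = 41423). It was 0.57, 0.37, 0.22, 0.10 and 0.02 for calls 2, 3, 4, 5 and 6 places apart. For occupancy it was 0.38 in adjacent calls and still 0.17 at 8 places. Adjacent distances, which share the call between them, had a rank correlation of -0.00 (n = 32451), and distances 2 places apart 0.13. A call was thus most like its neighbour in fuzziness, over about 4 nucleosomes, while the similarity in occupancy was weaker and reached further.

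Along genes the arrays became fuzzier and lower in occupancy while their spacing changed little. Transcription start sites were not used, so the call numbered +1 can be a later nucleosome of the array. In genes longer than 560 bp the call nearest the 5′ side within 60 bp upstream to 120 bp downstream of the start codon was taken as +1, and further calls were numbered while they followed at 110 to 230 bp. Of 4953 such genes, 4863 had a +1 call, 3996 were numbered to +4, 1320 to +8 and 636 to +10. The median distance of the dyad downstream of the start codon was 13 bp for +1, 179 bp for +2, 346 bp for +3 and 511 bp for +4. The distance from the previous call was 167 bp up to +3, then 166 bp to +4, 165 bp to +5 and to +6, 167 bp to +7, 166 bp to +8 and 169 bp to +9 and to +10. Its interquartile range was 161 to 173 bp at +2 and 157 to 180 bp at +10, and the share at the smallest distance of 148 bp was 6.38% at +2 and 14.3% at +10.

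Fuzziness gave median dyad SDs, in bp, of 17.8 for +1, 19.02 for +2, 20.9 for +3, 23.2 for +4, 24.9 for +5, 26.6 for +6, 27.9 for +7, 28.8 for +8, 28.9 for +9 and 29.9 for +10. Each of the calls up to +8 was fuzzier than the one before it by more than the 95% intervals of their medians. Within a gene, the +4 call was fuzzier than +1 by a median of 5.51 bp (95% interval 5.29 to 5.68) and in 82.0% of 3996 genes. The median difference was between 4.52 and 6.46 bp on each of the 16 chromosomes. For +8 it was 11 bp and held in 90.2% of 1320 genes, and for +2 it was 1.30 bp and held in 61.7% of 4687. The course was similar in the 1320 genes numbered to +8, where the dyad SD was 16.8 bp at +1, 22.1 bp at +4 and 28.8 bp at +8 over the same genes. In these genes the interquartile range of the dyad's distance from the start codon widened also, with 49 bp at +1, 53 bp at +4 and 78 bp at +8. Both the spread of fragments within a call and the spread of calls between genes thus grew along the array.

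Occupancy was 75.8 at +1, 74.97 at +2, 66.0 at +3, 59.1 at +4, 55.6 at +5 and 51.8 at +6, and it lay between 50.9 and 54.6 at +7 to +10. The ratio of +4 to +1 within a gene had a median of 0.790 (95% interval 0.766 to 0.820), with a ratio above 1 in 40.2% of genes. In the 882 genes whose +1 and +4 calls differed by at most 2 percentage points of GC it was 0.702 (0.664 to 0.743). The ratio of +2 to +1 was 1.01 (0.982 to 1.05), so the first pair of calls did not differ beyond the interval. Measured over the array, the repeat length was 166.7 bp over +1 to +4 and 166 bp over +1 to +8.

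The sharpness of the +1 call went with that of the calls after it. In the 20% of genes with the sharpest +1, the dyad SD was 12.5 bp for +1, 21.1 bp for +4 and 25.4 bp for +6. In the 20% with the broadest +1 it was 28.3 bp at +1, 27.8 bp at +4 and 29.8 bp at +6. The dyad SD thus changed less along genes with a broad +1, where sorting by +1 itself sets the difference at +1. The +1 to +2 distance was 168 bp in the sharpest 20% (interquartile range 8 bp wide) and 163 bp in the broadest (25 bp wide), and 91.4% against 66.9% of the genes were numbered to +4. Occupancy was 113.8 at +1 and 57.0 at +4 in the sharpest 20%, and 56.3 at +1 and 65.7 at +4 in the broadest. The +1 dyad SD varied little with gene length. It was 18.4 bp in genes up to 1000 bp, 17.8 bp up to 2000 bp, 16.9 bp up to 4000 bp and 18.1 bp in longer ones. Occupancy at +1 and +4 lay further apart in longer genes, with 71.5 at +1 and 60.2 at +4 in genes up to 1000 bp, and 94.99 at +1 and 50.05 at +4 in genes over 4000 bp.

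At the 3′ end the arrays sharpened again. In 2239 genes longer than 1500 bp the last call before the stop codon lay a median of 85 bp from it, with a dyad SD of 26.9 bp (95% interval 26.3 to 27.4) and an occupancy of 63.0 (61.0 to 65.4). The 3 calls before it, going towards the 5′ end, had dyad SDs of 29.5, 30.6 and 31.4 bp and occupancies of 61.2, 57.4 and 52.6. The median distances between these calls were 176 to 177 bp. Gaps of any length are included here, while the 165 to 169 bp counted from the start leave out gaps over 230 bp, so the values are not like for like.

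Windows reaching 75 bp to each side of the point midway between +1 and the next call upstream held more of the motifs known from promoters than windows elsewhere. A run of AAAAAAA on either strand was in 33.3% of 4834 such windows, taken where the calls were over 150 bp apart, against 13.9% of windows on the +1 dyad, 7.62% of those midway between +1 and +2 and 13.7% of 79936 windows tiled along the chromosomes. The letters TTACCCG, the core of the site of the general regulatory factor Reb1, were in 4.39% of upstream windows, 0.165% of +1 windows, 0.256% of windows between +1 and +2 and 0.928% of all windows. For the Abf1 core site the shares were 8.54% upstream, 4.01% at +1, 4.80% between +1 and +2 and 5.02% of all windows. For the Rap1 core site they were 0.600%, 0.082%, 0.043% and 0.181% in the same order, and for TATAAA 26.4%, 15.5%, 10.9% and 15.9%. Both strands were searched and the motifs were counted separately. Calls largely end 73 bp from genes, so the upstream windows tend to lie between genes, while the other windows lie largely in or beside coding sequence. Intergenic windows elsewhere and windows of matched base composition were not compared. The contrast can therefore not be told apart from one between intergenic and coding DNA. The next call upstream was a median of 455 bp from +1 (interquartile range 277 to 727, n = 4860).

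**Figure D3:**
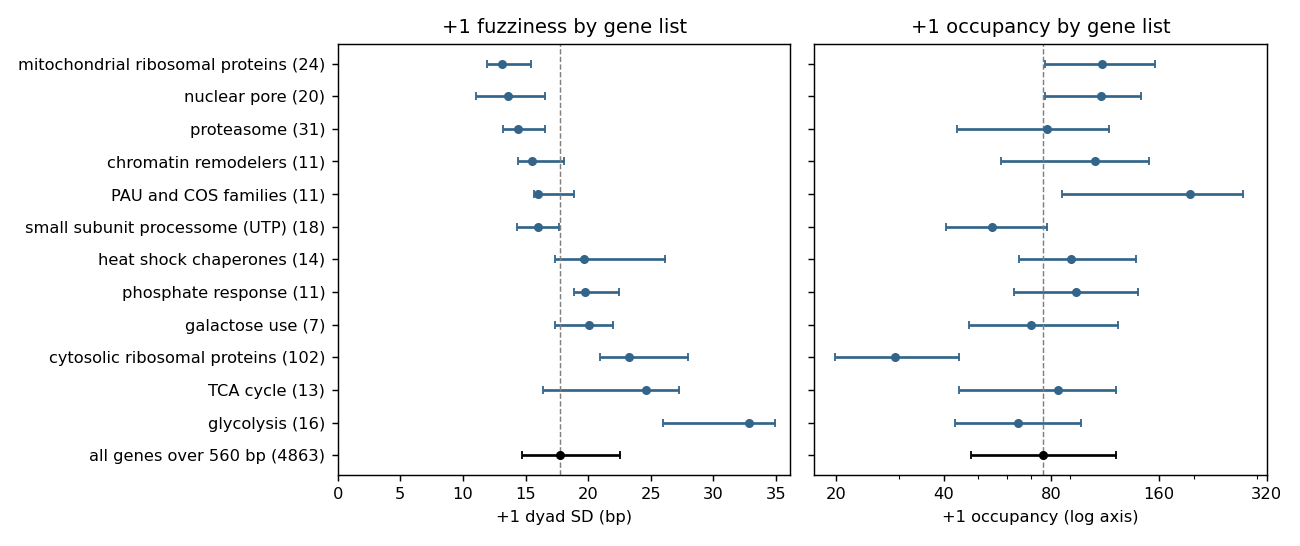
Dyad SD (bp, left) and occupancy (log axis, right) of the +1 call in 12 gene lists, with the number of genes in parentheses, above all genes longer than 560 bp in black. Points are medians, bars are quartiles and the dashed line is the median of all genes: mitochondrial ribosomal protein genes are sharpest (13.1 bp), glycolytic genes broadest (32.9 bp), and cytosolic ribosomal protein genes have the lowest occupancy (29.3).

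Gene groups differed in the fuzziness of +1 by as much as positions along genes did, as the plot of gene lists shows. The lists are described beside the 4863 genes with a +1 call and were not tested. Only listed genes longer than 560 bp with a +1 call are counted. For mitochondrial ribosomal proteins these were 24 of 43 listed genes, and for cytosolic ones 102 of 132. The median +1 was sharper than that of all genes in 6 lists, 5 of them given here. In 24 genes of mitochondrial ribosomal proteins, which translate the mitochondrial genome, the median +1 dyad SD was 13.1 bp, against 17.8 bp over all genes, and 21 of the 24 were below that value. MRPL35 was the sharpest of them at 10.9 bp with an occupancy of 102.0, and MRPL24 the broadest at 25.5 bp with an occupancy of 27.3. In 20 genes of the nuclear pore, the channel through the nuclear envelope, the median was 13.6 bp and 17 were below, with NUP116 at 9.17 bp and NUP159 at 23.2 bp. In 31 genes of the proteasome, which degrades ubiquitinated proteins, it was 14.4 bp and 25 were below, between PRE9 at 9.79 bp and RPN6 at 22.2 bp. In 18 UTP genes of the small subunit processome, which processes ribosomal RNA, it was 16.03 bp and 14 were below, between UTP13 at 10.4 bp and UTP22 at 24.3 bp. In 11 genes of chromatin remodelers it was 15.5 bp and 8 were below, between SNF2, the motor of SWI/SNF, at 11.8 bp and INO80, the motor of its own complex, at 28.5 bp. The 95% interval of this list's median, 12.4 to 23.9 bp, includes the value of all genes. ISW1 itself, the motor of ISW1a, had 18 calls with dyad SDs of 13.7 to 39.8 bp and occupancies of 17.4 to 99.1.

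Glycolytic and cytosolic ribosomal protein genes, known for strong transcription in glucose medium, had broad or poorly occupied +1 calls. Their +1 dyads lay a median of 38 bp and 16 bp downstream of the start codon, in this order, against 13 bp over all genes. Whether a later nucleosome was numbered +1 in these lists was not tested. In 16 genes of glycolysis, the route that breaks down glucose, the median +1 dyad SD was 32.9 bp (interquartile range 25.97 to 34.95) and 0 of 16 were below the 17.8 bp of all genes. ENO1, which encodes enolase, was broadest at 41.2 bp with an occupancy of 61.6. GLK1, which encodes glucokinase, was sharpest at 18.8 bp, with an occupancy of 1888. The +1 to +2 distance of the 11 that could be numbered was 176 bp, against 167 bp over all genes, and its 95% interval of 159 to 190 bp includes that value. In 102 genes of cytosolic ribosomal proteins the +1 dyad SD was 23.3 bp and 7 were below the value of all genes. Their +1 occupancy was 29.3 (interquartile range 19.8 to 44.2), against 75.8 over all genes (47.6 to 121.2), and 5 of 102 were above it. Their +1 calls held 35.4% GC, and 1093 genes whose +1 call lay within 2 points of that had an occupancy of 56.6 as a median, which lies between both values. Their +1 to +2 distance was 157 bp and was at the smallest distance of 148 bp in 19 of 69 genes, against 299 of 4687 over all genes. RPS21A was sharpest at 12.6 bp with an occupancy of 24.6, and RPL10 broadest at 37.0 bp with 23.5. The windows upstream of these genes held the Rap1 core in 10.9% of 101 cases, against 0.600% of all upstream windows. In 13 genes of the TCA cycle the median dyad SD was 24.6 bp, with a 95% interval of 15.5 to 27.7 bp that includes the value of all genes, from SDH2 at 11.2 bp to SDH1 at 35.7 bp, both subunits of succinate dehydrogenase.

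In the lists of inducible genes the median +1 was above that of all genes, but each 95% interval included the 17.8 bp of all genes. In 14 genes of heat shock chaperones the +1 dyad SD was 19.7 bp, from 14.2 bp in HSP82, an Hsp90, to 37.6 bp in HSP30, a plasma membrane stress protein. At +4 it was 31.7 bp, against 23.2 bp over all genes. HSP26, a small heat shock protein, was sharp throughout, with dyad SDs of 14.7, 12.5, 14.2 and 18.6 bp and occupancies of 108.8, 320.2, 163.2 and 86.0 over its 4 calls. In 7 genes of galactose use the +1 dyad SD was 20.0 bp, from GAL1, galactokinase, at 15.6 bp to GAL3, the galactose sensor, at 27.4 bp. The 9 calls inside GAL1 had occupancies of 87.1, 96.2, 1567, 123.7, 104.4, 74.8, 59.2, 90.4 and 92.6 in the direction of transcription. A single call thus held over 10 times the signal of either neighbour. GAL10, the epimerase next to it, had 12 calls between 55.4 and 217.3. In 11 genes of the phosphate response the dyad SD was 19.7 bp, from the regulator PHO2 at 10.1 bp to the acid phosphatase PHO3 at 31.5 bp. PHO5, the main repressible acid phosphatase, had 8 calls with dyad SDs of 23.2 to 35.8 bp and occupancies of 52.3 to 227.1. IMD2, of guanine nucleotide synthesis, had 8 calls of 170.1 to 756.7, 2 of them in repeated sequence. MET16, of sulfate assimilation, had 5 calls of 18.4 to 93.9, and YAF9, shared by the NuA4 and SWR1 complexes, had 4 of 41.4 to 123.3. The list of the subtelomeric PAU and COS families held 36 genes, of which only 12 were longer than 560 bp. The shorter members are thus left out, and the values do not describe both families as a whole. In the 11 genes with a +1 call the +1 dyad SD was 15.99 bp and the occupancy 195.2. Of these 11 calls, 5 were in repeated sequence. The 95% intervals of these medians, 15.6 to 20.6 bp and 49.0 to 297.8, include the 17.8 bp and 75.8 of all genes. COS5 had the sharpest at 11.8 bp and COS7 the broadest at 22.4 bp.

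Among 1214 genes with 8 numbered calls of at least 100 fragments each, the SD of the 7 distances had a median of 10.2 bp (interquartile range 8.06 to 13.6). Genes with less regular arrays had fuzzier calls (rank correlation 0.42 over genes). The most regular arrays were those of PMT4, a protein mannosyltransferase, whose distances ran from 162 to 167 bp, UBX5, a partner of Cdc48, with 161 to 166 bp, and TYW1, of transfer RNA modification, with 155 to 164 bp. The distances of PMT4 and UBX5 had an SD of 1.86 bp each. Yet the occupancy of PMT4 over +1 to +8 was 92.1, 185.4, 33.1, 72.2, 23.2, 36.6, 91.7 and 122.9, so an array of regular spacing was uneven in occupancy. The GC content of these calls ran from 36.7% to 47.6%, and its part was not tested. The least regular were YJR029W, YGR038C-B and YAR010C, open reading frames of Ty retrotransposons in repeated sequence, with SDs of 33.4, 32.1 and 31.8 bp.

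The sharpest arrays were in OKP1, a kinetochore gene, with a median dyad SD of 13.03 bp over +1 to +8, in AMA1, a meiotic activator of the anaphase-promoting complex, with 13.2 bp, and in LAM6, a sterol transporter, with 13.97 bp. In OKP1 the dyad SDs were 16.3, 15.7, 13.3, 11.9, 12.7, 13.8, 10.1 and 11.3 bp from +1 to +8. They did not follow the course of the median gene, where +8 was fuzzier than +1. The broadest were in HRP1, a subunit of an mRNA cleavage factor, with 37.6 bp, FRE2, a ferric reductase, with 37.0 bp, and ALD6, an aldehyde dehydrogenase, with 36.9 bp. In HRP1 every call from +1 to +8 had a dyad SD between 34.8 and 46.3 bp. The distance from +1 to the next call upstream was at its smallest value, 148 bp, in YCL068C, DIA3 and MET6, a choice among ties. It was longest in FLO1, a flocculin, with 7650 bp, and in the overlapping Ty reading frames YGR038C-A and YGR038C-B with 7586 bp.

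Occupancy was unevenly distributed. Calls past 10 times the median, a limit chosen after the values were seen, numbered 1640 (3.16%) and held 35.6% of the summed occupancy. Of these, 1231 lay in unique sequence and held 28.4% of the summed occupancy, with a median GC content of 52.4% and a dyad SD of 22.0 bp, and 34 of the 1231 had a call in repeated sequence within 1000 bp. Runs were counted over calls at most 230 bp apart, so a wider gap ended a run. Counted this way, 169 runs of at least 2 such calls without repeated sequence held 400 calls on 16 chromosomes, with at most 5 calls in a run. Runs could adjoin across a wider gap, as in YAT1, where a run of 3 calls was followed by a run of 4. Among the 1214 genes with 8 numbered calls of at least 100 fragments each, the highest median occupancy over +1 to +8 was in DEP1, of the Rpd3L histone deacetylase complex. Its calls held 126.5, 585.8, 215.5, 2036, 1949, 2337, 3387 and 3736 from +1 to +8, and the call after these 48.5. MHP1, a microtubule-associated protein, held 3202, 1786, 1014, 2074, 567.7, 350.1, 1075 and 144.8 from +1 to +8. RRD1, a phosphatase activator, held 795.9, 3712, 1265, 1523, 561.4, 97.2, 1461 and 84.8. In each gene the levels of neighbouring calls differed several-fold at some place, far beyond counting error. The rule of at least 100 fragments in each call leaves out genes of low occupancy, and among the same 1214 genes the lowest medians were 22.8 in ESC1, of the nuclear periphery, 24.2 in RNT1, an RNase III, and 24.7 in UPF3, of nonsense-mediated decay, against a median of 61.0 over these genes. The highest single calls were 4886 in the subtelomeric reading frame YFL066C, whose central sequence occurs 16 times, 4525 in SSA3, an Hsp70 of unique sequence, and 3880 outside any gene on chromosome XII in sequence that occurs 3 times.

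**Figure D4:**
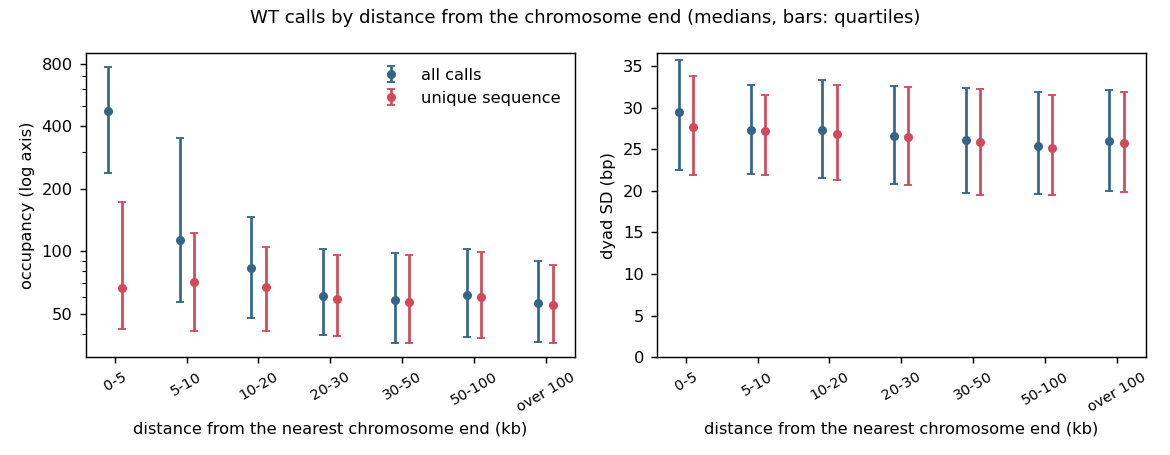
Occupancy (log axis, left) and dyad SD (bp, right) of WT calls by distance from the nearest chromosome end (kb), for all calls in blue and for calls in unique sequence in red, as medians with quartile bars. Within 5 kb of an end the occupancy is 471 over all calls and 66.1 in unique sequence, and beyond 100 kb it is 56.6 and 55.4.

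Chromosomes differed little in spacing and fuzziness. The median distance was between 171 and 174 bp and the median dyad SD between 25.3 bp on XIV and 26.9 bp on XII. Median occupancy was between 52.7 on IV, the longest chromosome here, and 73.03 on I, the shortest. Spearman's rank correlation between length and median occupancy was -0.85 over the 16 chromosomes, and length and GC content had a rank correlation of -0.89 without the end regions. Among calls of 38 to 42% GC outside the ends the rank correlation was -0.30. The chromosomes share the libraries, and length and base composition cannot be told apart.

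Within 20 kb of chromosome ends the median occupancy was 2.12 times that of the rest (n = 1786 calls). The dyad SD was 1.64 bp higher, and the opposite ends of both medians' 95% intervals lay 1.01 to 2.43 bp apart. The median occupancy was 471 within 5 kb, 113.3 at 5 to 10 kb, 83.1 at 10 to 20 kb, 61.2 at 20 to 30 kb and 56.6 beyond 100 kb. Repeated sequence moved with it, with 83.2%, 54.6%, 29.6%, 6.75% and 3.36% of the calls in the same zones. In unique sequence the medians were 66.1 within 5 kb (n = 87), 71.3 at 5 to 10 kb, 67.2 at 10 to 20 kb and 55.4 beyond 100 kb. The occupancy ratio within 20 kb was 1.20 there, or 1.12 to 1.31 between the opposite ends of both medians' 95% intervals. The ends were higher in occupancy in 15 of 16 chromosomes over all calls and in 14 of 16 in unique sequence, and higher in dyad SD in 13 of 16 and 11 of 16. Reads of repeated sequence cannot be assigned to 1 copy, and how they were assigned is not given in the sources used here.

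Annotated elements differed in level. Ty retrotransposons held 1263 calls, 94.9% of them in repeated sequence, with a median occupancy of 257 and a dyad SD of 34.4 bp. All 2558 calls in repeated sequence had a median occupancy of 251.8 and a dyad SD of 32.6 bp, against 56.3 and 25.7 bp in unique sequence. Replication origins, which fire in S phase, held 165 calls with a median occupancy of 49.98 and a dyad SD of 26.2 bp. Transfer RNA genes covered 0.182% of the genome and held 16 calls, which are 0.031% of the calls. Of these 16, 37.5% were in repeated sequence, and their median occupancy was 7.73. Replication origins held 0.318% of the calls against 0.853% of the genome, and long terminal repeats 0.119% against 0.921%. For Ty elements the shares were 2.43% and 2.41%, and for telomere regions 0.961% and 1.17%. Calls away from coding regions are few here, so these shares do not measure nucleosome depletion. Within 2 kb of a centromere the occupancy was 54.3 (95% interval 50.1 to 61.4, n = 245) and the dyad SD 25.5 bp (24.5 to 26.7), against 56.6 and 25.95 bp beyond 50 kb. In this zone neither differed beyond the intervals. The occupancy was higher at 5 to 10 kb, with 64.1 (59.6 to 68.5), and at 20 to 50 kb, with 63.5 (61.7 to 65.6), than beyond 50 kb (56.2 to 57.0). Within 10 kb the occupancy was above the rest in 9 of 16 chromosomes and the dyad SD in 7.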

How the data were processed

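MNase-seq calls of 3 merged WT samples were analysed; the mutant tables were not used. Reads from both ends were aligned by the authors with Bowtie 2.0 (genome build sacCer3); they took read-pair centres as dyads, normalized their density to the mean genome-wide coverage, called nucleosomes greedily on the merged samples and kept WT calls that a mutant call overlaps by at least 73 bp. The deposited occupancy is a signal per call scaled by that coverage, and the deposited dyad SD is a score in bp for each call. The files' positions could count from 0 or 1, which moves sequences by at most 1 bp.

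From these values medians, quartiles, distribution-free 95% intervals and Spearman correlations were computed as descriptions, after repeated rows were dropped. Calculations were tested on simulated data. Genes, GC content and copies of the central 50 bp came from RefSeq R64, whose chromosome lengths match sacCer3. Members, gene lists and rules were chosen with earlier results of these data known. Named genes were the 3 lowest and 3 highest in regularity, dyad SD, occupancy and upstream distance, the sharpest and broadest +1 of each of 12 lists, genes of the study and marker genes. Named calls were the 3 sharpest, broadest and most occupied. Alternatives covered filters on occupancy and fragments, both WT tables, means, repeated rows, gene subsets and zone widths; those on unique sequence, the smallest distance, genes numbered to +8 and matched GC were chosen later, with the values in view. The tools were matplotlib 3.10.9, scipy 1.17.1, pandas 2.3.3 and numpy 2.4.6 under Python 3.11.15.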

Additional observations from a re-analysis of the deposited data

Results flagged for a closer look

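The rRNA locus, which the methods name as filtered, still held 12 calls, with a median occupancy of 43753 and 8.09% of the summed occupancy. The marker genes LYS2, LEU2, HIS3 and URA3, deleted in whole or in part in the labelled background, held 11894, 5370, 4276 and 2269 fragments, which is above the level of 0 that a deleted gene would give.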

How the results depend on the processing

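No paired analysis was possible because calls were made on merged samples, and no replicate could be left out of merged calls. Of 51 alternatives over 13 results, 21 stayed inside the 95% interval of the reported value, 29 moved outside it and 1 reversed. These intervals are narrow because calls are many, and the causes were not tested. For contrasts between sets of calls, the range between the opposite ends of both medians' intervals was used in place of a 95% interval.

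With the lowest 10% of occupancy left out, the median distance was 175 bp, the median dyad SD 25.4 bp, the median occupancy 63.4, the rank correlation of occupancy and dyad SD -0.30, the rank correlation of spacing and dyad SD 0.035, the upstream distance 469 bp, the +4 minus +1 dyad SD 5.18 bp, the +4 over +1 ratio 0.824 and the GC difference of sharp and broad calls 0.680 points, against 1.36. Means in place of medians gave a distance of 232.0 bp, a dyad SD of 26.2 bp, an occupancy of 116.8, a +1 to +2 distance of 167.2 bp and an upstream distance of 619 bp. The median distance was 171 bp with both WT tables joined, 168 bp at most 230 bp apart, 171 bp with repeated rows and the rRNA locus kept and 175 bp without pairs at the smallest distance. With repeated rows and the rRNA locus kept, the median occupancy was 58.8 and the rank correlation of occupancy and dyad SD -0.33. In unique sequence the median occupancy was 56.3, that rank correlation -0.41 and the occupancy ratio of the ends 1.20. That ratio was 5.77 for 10 kb and 1.51 for 30 kb. The rank correlation of spacing and dyad SD reversed to -0.070 for pairs at most 200 bp apart and was 0.18 without pairs at the smallest distance. In genes over 1000 bp the upstream distance was 464 bp, in genes numbered to +8 the dyad SD difference was 4.92 bp, and at matched GC the +4 over +1 ratio was 0.702.

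Merged calls limit all statements to these libraries, and promoter nucleosomes and unpaired calls were not analysed here.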

Other observations

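Telomere regions held 499 calls, 93.4% of them in repeated sequence, with a median occupancy of 541 and a dyad SD of 31.4 bp. Long terminal repeats held 62 calls with a median occupancy of 141.4. Several runs of very high occupancy fell in neighbouring genes of chromosome III: ARE1, a sterol acyltransferase, had a run of 3 calls with a median of 2735, and BUD23, a ribosomal RNA methyltransferase, a run of 4 with a median of 1368. The call on each side of the BUD23 run held 39.6 and 38.8.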
